A study of Mus musculus with 36 samples.

Results

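Ventricular muscle taken 7 days after surgical resection of heart tissue was set against ventricular muscle taken 7 days after a sham operation. These 4 RNA sequencing libraries, 2 from each operation, belong to a series of 36 libraries of mouse heart. Of the 36128 gene models in the authors' table, the 12386 that reached 1 FPKM in at least 2 of the 4 libraries were tested. FPKM, fragments per transcript length and per mapped fragments of a library, is a level per length. Differences below are resection minus sham on the log2(FPKM + 1) scale, which understates the change of low genes.

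All groups used were CD-1 mice, an outbred strain, and no transgene or drug is named for any of them. The resection group was ventricle 7 days after resection (n = 2) and its control was ventricle 7 days after sham surgery (n = 2). Further ventricle groups of 2 libraries each were those labelled day 1 resection and day 1 sham, ventricle at postnatal day 0 (P0), P4 and P7, and adult ventricle, for which the labels name no operation. Isolated cardiomyocytes, separated on Miltenyi columns, came from hearts 7 days after resection (n = 3) or after sham surgery (n = 3). Age at surgery, sex and the number of animals behind a library are not given in the sources used here, so p-values measure the spread between libraries, which may be technical.

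The newborn mouse heart is known for replacing ventricular muscle that has been cut away, an ability it loses soon after birth. The process as it is described includes an early influx of neutrophils and macrophages, a provisional matrix rich in fibronectin, tenascin and periostin, activation of the epicardial covering, and division of muscle cells that already exist. Muscle cells that leave the cell cycle lower their fetal contractile isoforms and take up fatty acid oxidation. The comparison asks which of these programs differed between resected and sham-operated ventricle after 7 days.

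The 4 libraries resembled each other closely. Across tested genes Pearson's r was 0.984 between the resection libraries and 0.983 between the sham libraries, and it lay between 0.977 and 0.983 across the operations. With the P0, P4, P7 and adult libraries r was between 0.808 and 0.897, so the day 7 libraries stood apart from those, and with the libraries labelled day 1 it was between 0.942 and 0.967. Absolute depth is unknown; ratios of low values put the relative depths within 1.27-fold of each other. Genes encoded in mitochondrial DNA took 24.0% and 27.7% of summed FPKM in resection libraries, against 30.1% and 31.5% in sham libraries. The labels call all of these samples cardiomyocytes, but the ventricle libraries also held fibroblast, endothelial and macrophage transcripts. Fewer cells of a type and less RNA per cell cannot be told apart in such bulk samples.

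Libraries also differed in sex-linked transcripts. Xist, the RNA that silences 1 X chromosome in females, had 23.0 and 0.11 FPKM in resection libraries, against 58.6 and 35.9 FPKM in sham libraries. Ddx3y, a gene on the Y chromosome, had 23.2 and 32.9 FPKM in resection libraries, against 0.0193 and 12.6 FPKM in sham libraries. Resection replicate 2 was thus near 0 for Xist, sham replicate 1 was near 0 for Ddx3y, and the other two libraries held both. Its part in the results was not tested.

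At a Benjamini-Hochberg adjusted p under 0.05 in limma, 23 genes were called, 22 higher after resection (0.178% of genes tested) and 1 lower (0.00807%). At an unadjusted p under 0.05 the counts were 1285 higher (10.4%) and 145 lower (1.17%). Much of that imbalance was a shift common to all genes, whose median difference was 0.12 as deposited, and -0.01 once libraries were scaled by median of ratios or normalized by quantiles. With median-of-ratios scaling the unadjusted counts were 580 higher and 470 lower, and 15 genes were called higher and 2 lower. With quantile normalization 18 were called higher and 11 lower. As deposited, both resection libraries lay above both sham libraries in 36.3% of all genes and below both in 6.52%. A lack of overlap in any single gene below is to be read beside those shares. The call count was fragile. Each SE used the spread within all 8 ventricle groups, including groups where a gene was near 0, and n = 2 each counts the libraries compared. A fit of the 4 libraries alone called 3 genes, and only 1 of them, Rpl17-ps5, was among the 23. No gene was called in limma with a pseudocount of 0.1 (1213 higher and 127 lower at an unadjusted p under 0.05) or in a fit of the 8 surgery libraries alone (844 higher and 106 lower), 2 were called without resection replicate 1, 8 without resection replicate 2 and 43 without sham replicate 2. In a fit without the 4 libraries labelled day 1, 63 genes were called, including all 23.

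**Figure D1:**
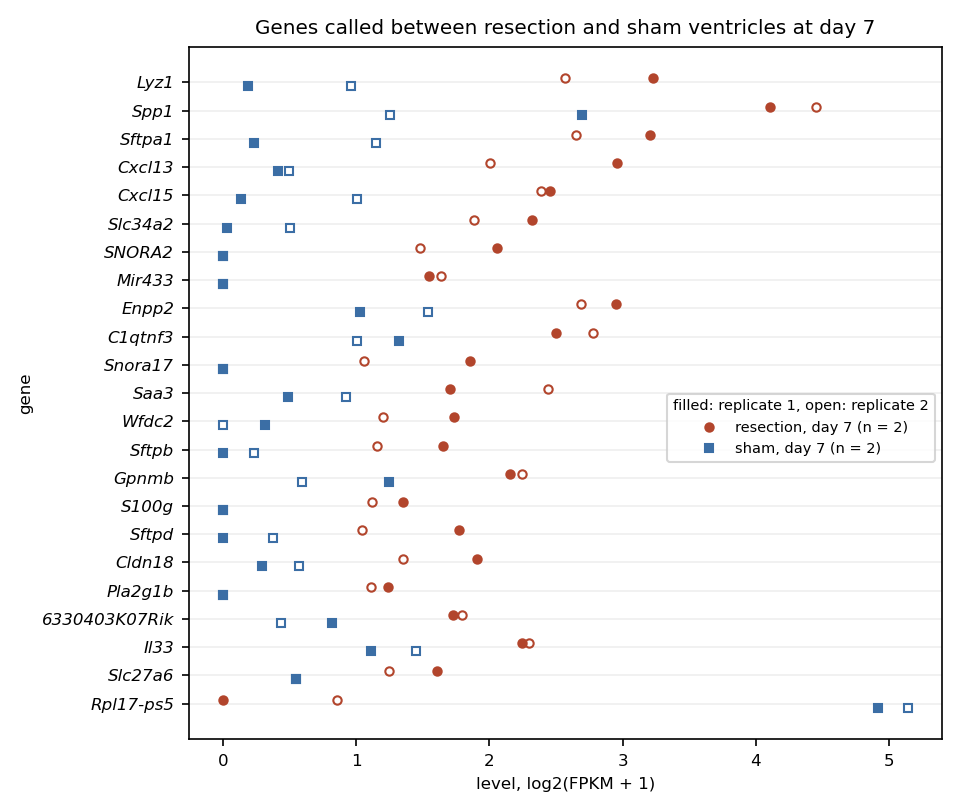
Level of each called gene in each of the 4 libraries, in log2(FPKM + 1), with resection as circles and sham as squares, replicate 1 filled and replicate 2 open. Rows run from the largest increase, Lyz1, down to Rpl17-ps5, the 1 gene called lower; in no row do the 2 groups overlap.

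Most called genes were low. Only 5 of the 22 higher genes averaged at least 5 FPKM after resection, and 15 of the 22 passed the filter through the resection libraries alone, which means that a difference was built into their selection. The 5 with at least 5 FPKM were Lyz1, Spp1, Sftpa1, Enpp2 and C1qtnf3, and Lyz1 was also among the 15.

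Spp1 encodes osteopontin, a secreted matrix glycoprotein made by macrophages and other cells in injured tissue (chr5:104864136-104870069, build mm9). It had 16.2 and 20.9 FPKM in resection libraries, against 5.47 and 1.38 FPKM in sham libraries. Both resection libraries lay above both sham libraries, and sham replicate 1 was about as far from sham replicate 2 as from resection on the log scale. The log2 difference was 2.31 ± 0.33 (SE, n = 2 each, adjusted p = 0.0131).

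C1qtnf3, which encodes a secreted relative of complement C1q (chr15:10882086-10909905, mm9), had 4.65 and 5.87 FPKM in resection libraries, against 1.5 and 1.01 FPKM in sham libraries. Its groups were well separated, with a log2 difference of 1.47 ± 0.16 (SE, n = 2 each, adjusted p = 0.00183). It was tested and kept its direction whichever of the 4 libraries was left out. The 15 higher genes that passed the filter through resection alone cannot be tested once either resection library is dropped. Outside the day 7 libraries its highest value in ventricle was 0.267 FPKM.

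Enpp2 encodes autotaxin, the secreted enzyme that makes lysophosphatidic acid (chr15:54670452-54751701, mm9). It had 6.74 and 5.45 FPKM in resection libraries, against 1.04 and 1.91 FPKM in sham libraries, with no overlap (log2 difference 1.54 ± 0.25, SE, n = 2 each, adjusted p = 0.0283).

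Gpnmb, Il33 and Cxcl13 are named as called members of their lists, and Saa3 by the test against the labelled day 1 effect. Called genes that met no naming rule, such as Slc27a6, Mir433 and Rpl17-ps5, were singled out after their values were seen. Gpnmb, a membrane glycoprotein of lipid-laden and injury-associated macrophages, had 3.46 and 3.74 FPKM in resection libraries, against 1.38 and 0.511 FPKM in sham libraries, a log2 difference of 1.28 ± 0.20 (SE, n = 2 each, adjusted p = 0.0213). Saa3, an acute phase apolipoprotein, had 2.26 and 4.44 FPKM in resection libraries, against 0.402 and 0.892 FPKM in sham libraries, a log2 difference of 1.37 ± 0.22 (SE, n = 2 each, adjusted p = 0.0213). In both genes every resection library was above every sham library, and for Saa3 the resection libraries differed by about as much as the higher sham library did from the lower resection library. Saa3 passed the filter through the resection libraries alone, so a difference was built into its selection.

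Signals released by tissue cells were among the called genes. Il33, an alarmin released by damaged stromal and epithelial cells, had 3.74 and 3.91 FPKM in resection libraries, against 1.17 and 1.72 FPKM in sham libraries (log2 difference 0.99 ± 0.16, SE, n = 2 each, adjusted p = 0.0279). Cxcl13, the chemokine that attracts B cells, had 6.78 and 3.0 FPKM in resection libraries, against 0.333 and 0.412 FPKM in sham libraries (log2 difference 2.02 ± 0.25, SE, n = 2 each, adjusted p = 0.00388). Both pairs of libraries were separate for both genes, and the sham libraries for Cxcl13 stood below the FPKM minimum. These were 2 of the 10 tested cytokines and chemokines, a list of 27, where 0.178% of all genes were called higher. The list's median difference was 0.47, against 0.12 over all genes. Cxcl13 passed the filter through the resection libraries alone, so a difference was built into its selection.

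Slc27a6, a fatty acid transporter, had 2.04 and 1.38 FPKM in resection libraries, against 0.465 and 0.465 FPKM in sham libraries (log2 difference 0.87 ± 0.15, SE, n = 2 each, adjusted p = 0.0446). It passed the filter through the resection libraries alone, so a difference was built into its selection. Mir433, a microRNA gene in an imprinted cluster, had 1.92 and 2.11 FPKM in resection libraries and was listed at 0 in both sham libraries. S100g, Pla2g1b and the small nucleolar RNA genes Snora17 and SNORA2 were likewise listed at 0 in both sham libraries, so no fold is given for them. Rpl17-ps5, the gene called lower, had 0 and 0.811 FPKM in resection libraries, against 29.2 and 34.3 FPKM in sham libraries. That gene passed the filter through the sham libraries alone. It is a pseudogene of the ribosomal protein gene Rpl17, and how reads were divided between such copies is not given in the sources used here, so its difference is uncertain.

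Genes of the lung epithelium list made up 6 of the 22 genes called higher in ventricle. Of the 13 listed lung genes 11 were tested and 6 were called higher, where 0.178% of all genes were. The called ones were Sftpa1, Sftpb, Sftpd, Cxcl15, Slc34a2 and Cldn18. Of the 11 tested, 6 had passed the filter only through the resection libraries. Sftpa1, which encodes surfactant protein A (chr14:41945070-41949741, mm9), had 8.21 and 5.28 FPKM in resection libraries, against 0.175 and 1.22 FPKM in sham libraries (log2 difference 2.24 ± 0.28, SE, n = 2 each, adjusted p = 0.00388). Sftpc, the surfactant protein made by alveolar type II cells, had 164 and 83.2 FPKM in resection libraries, against 1.99 and 23.5 FPKM in sham libraries. Its groups did not overlap, yet the sham libraries were far apart and the difference of 3.78 ± 0.75 (SE, n = 2 each, adjusted p = 0.0717) was not called.

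Scgb1a1, the secretoglobin of airway club cells, had 36.6 and 1.99 FPKM in resection libraries, against 0.307 and 0 FPKM in sham libraries, so it was high in resection replicate 1 alone. Nkx2-1, the transcription factor that defines lung epithelium, had 1.02 and 0.686 FPKM in resection libraries, against 0 and 0.147 FPKM in sham libraries. Abca3, a lipid transporter of surfactant bodies also expressed elsewhere, had 4.51 and 3.73 FPKM in resection libraries, against 2.99 and 3.56 FPKM in sham libraries. Summed over the 13 genes, the level was 244 and 112 FPKM in resection libraries and 6.95 and 34.5 FPKM in sham libraries, while the 12 other ventricle libraries lay between 6.06 and 20.7 FPKM. Of the 23 called genes 17 were outside the list, and with lung genes left out and p-values adjusted again over the other genes 14 were called, 13 higher and 1 lower.

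Lyz1, a lysozyme of epithelial and myeloid cells (chr10:116724851-116729924, mm9), had 8.39 and 4.92 FPKM in resection libraries, against 0.14 and 0.944 FPKM in sham libraries. The log2 difference was 2.32 ± 0.25 (SE, n = 2 each, adjusted p = 0.00183), the largest among the genes called higher. Lyz1 passed the filter through the resection libraries alone, so a difference was built into its selection. It has a near-identical neighbor, Lyz2, and reads may be split between the pair. Lyz2 itself had 103 and 77.0 FPKM in resection libraries, against 43.4 and 36.2 FPKM in sham libraries, without overlap (log2 difference 1.15 ± 0.25, SE, n = 2 each, adjusted p = 0.0889). The part of lung transcripts in the differences of genes that lung tissue also expresses, Lyz1, Lyz2, Il33 and Wfdc2 among them, was not tested. Nor was it tested for S100g, Pla2g1b and Slc27a6, which are outside the list. In isolated cells each of them was higher in every resection library than in every sham library. Slc27a6 had 4.35, 1.68 and 5.55 FPKM there after resection, against 0.0286, 0.0594 and 0.112 FPKM after sham surgery.

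Genes of the cell cycle were higher as a group, although none was called. All 29 tested genes of mitosis had a positive difference, as did 9282 of the 12386 genes tested. Of the 29, 21 had an unadjusted p under 0.05. In 28 the lowest resection library exceeded the highest sham library, where 36.3% of all genes did so and 6.52% did the reverse. The list's median difference was 0.62, against 0.12 over all genes. After median-of-ratios scaling all 29 were still positive, where 5940 of the 12386 genes were. Of the 29, 17 had an unadjusted p under 0.05 (4.68% over all genes) and 27 did not overlap (18.1% over all genes, with 19.1% in reverse). The list's median was then 0.48. For DNA replication all 27 tested genes were positive, with a median of 0.49. At an unadjusted p under 0.05, 20 of them were higher, as were 10.4% of all genes. After the scaling 26 were positive, 11 had an unadjusted p under 0.05 and the median was 0.37.

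**Figure D2:**
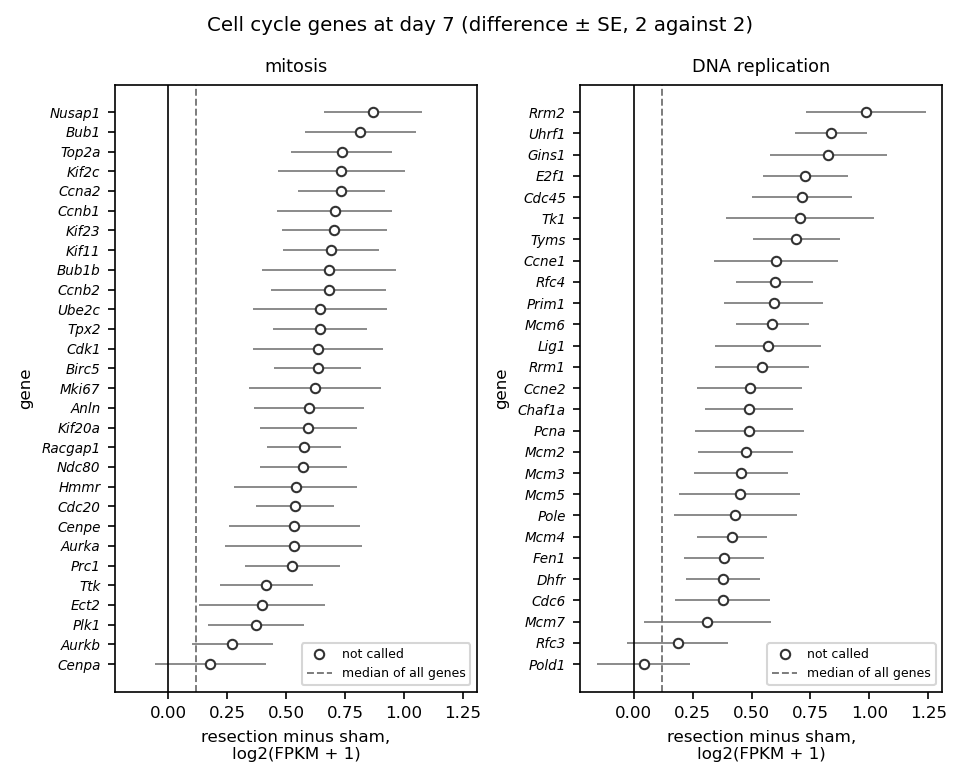
Resection minus sham difference in log2(FPKM + 1) for each tested gene of the mitosis and DNA replication lists, with its SE (n = 2 each); the dashed line is the median of all genes, 0.12. Open points were not called; all lie right of 0, and Uhrf1 has the smallest adjusted p, 0.0553.

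Top2a, the topoisomerase that untangles chromosomes before they separate, had 43.4 and 36.7 FPKM in resection libraries, against 26.6 and 20.9 FPKM in sham libraries (log2 difference 0.73 ± 0.21, SE, n = 2 each, adjusted p = 0.212). Mki67, the proliferation marker Ki-67, had 18.0 and 17.0 FPKM in resection libraries, against 11.7 and 10.4 FPKM in sham libraries (log2 difference 0.62 ± 0.28, SE, n = 2 each, adjusted p = 0.418). Ccnb1, the cyclin that drives entry into mitosis, had 5.78 and 6.08 FPKM in resection libraries, against 3.21 and 3.29 FPKM in sham libraries (log2 difference 0.70 ± 0.24, SE, n = 2 each, adjusted p = 0.289). In each of the 3 genes the groups were separate, as in 36.3% of all genes with resection higher, and the differences were of similar size.

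Nusap1, a spindle protein, had the smallest p of the mitosis list, with 9.66 and 9.31 FPKM in resection libraries, against 6.30 and 3.53 FPKM in sham libraries (log2 difference 0.87 ± 0.21, SE, n = 2 each, adjusted p = 0.156). The sham libraries differed more for this gene than the resection libraries did. Ccna2, the cyclin of S phase and mitosis, followed with a log2 difference of 0.73 ± 0.18 (SE, n = 2 each, adjusted p = 0.156). Cenpa, the histone variant of centromeres, was the member nearest 0, with 34.5 and 30.0 FPKM in resection libraries, against 30.6 and 26.1 FPKM in sham libraries, and its groups overlapped.

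Among replication genes Uhrf1, which keeps DNA methylation through S phase, came closest to a call. It had 9.76 and 9.98 FPKM in resection libraries, against 5.21 and 4.96 FPKM in sham libraries (log2 difference 0.84 ± 0.15, SE, n = 2 each, adjusted p = 0.0553). E2f1, an activator of S phase genes, had 4.96 and 4.14 FPKM in resection libraries, against 2.14 and 2.55 FPKM in sham libraries (log2 difference 0.73 ± 0.18, SE, n = 2 each, adjusted p = 0.156). Pcna, the sliding clamp of DNA polymerase, had 22.1 and 16.3 FPKM in resection libraries, against 13 and 13.4 FPKM in sham libraries (log2 difference 0.49 ± 0.23, SE, n = 2 each, adjusted p = 0.44). None of the groups overlapped (36.3% of all genes with resection higher), and resection replicate 1 was the higher library for E2f1 and Pcna.

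Because the cell cycle genes differed in 1 direction, the promoters of a few are shown, taken from RefSeq on build GRCm38.p6. Each runs from 250 bases before the start of the gene to 50 bases after it, 5′ to 3′ on the strand of the gene, which is the minus strand for all 3. In Top2a (chr11:99024140-99024439) and Ccnb2 (chr9:70421505-70421804), genes of the mitosis list, capitals mark CCAAT, the letters bound by the factor NF-Y, and TTTGAA, the letters of the cell cycle homology region, on either strand. In Mcm6 (chr1:128359656-128359955), a subunit of the replicative helicase, capitals mark TTTNNCGC, a form of the E2F motif, on either strand.
Top2a: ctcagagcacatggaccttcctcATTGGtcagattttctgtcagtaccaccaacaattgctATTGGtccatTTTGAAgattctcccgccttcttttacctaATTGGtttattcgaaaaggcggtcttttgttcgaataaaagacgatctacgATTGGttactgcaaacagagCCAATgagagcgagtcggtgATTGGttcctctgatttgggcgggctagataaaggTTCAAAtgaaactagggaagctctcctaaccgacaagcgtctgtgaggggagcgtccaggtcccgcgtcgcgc
Ccnb2: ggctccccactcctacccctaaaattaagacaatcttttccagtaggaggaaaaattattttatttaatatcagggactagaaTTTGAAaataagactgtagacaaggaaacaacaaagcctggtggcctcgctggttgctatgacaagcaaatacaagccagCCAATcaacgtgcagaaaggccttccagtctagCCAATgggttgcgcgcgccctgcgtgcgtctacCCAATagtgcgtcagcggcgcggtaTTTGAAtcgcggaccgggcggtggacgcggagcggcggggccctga
Mcm6: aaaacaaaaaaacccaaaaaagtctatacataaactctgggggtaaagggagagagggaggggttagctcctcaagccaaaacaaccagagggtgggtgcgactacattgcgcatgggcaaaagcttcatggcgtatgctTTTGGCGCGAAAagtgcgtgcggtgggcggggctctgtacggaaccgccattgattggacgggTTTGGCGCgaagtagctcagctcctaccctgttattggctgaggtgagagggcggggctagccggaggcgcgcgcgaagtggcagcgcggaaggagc

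The Top2a promoter held 6 matches to CCAAT, the nearest 58 bases before the start, and 2 to TTTGAA, the nearest 23 bases before it. Ccnb2 held 3 matches to CCAAT, the nearest 21 bases before the start, and 2 to TTTGAA, of which 1 lay after the start. Mcm6 held 3 matches to TTTNNCGC, of which 1 pair overlapped, and the nearest was 47 bases before the start. Promoters were matched for 25 of the 29 mitosis genes, 22 of the 27 replication genes and 8013 of the 12337 tested symbols. Shares are counted by gene, with a match in any of its promoters. CCAAT was present for 80% of the matched mitosis genes, 59.1% of replication genes, 43.2% of all tested genes matched and 41.1% of all 27025 genes with promoters. TTTGAA was present for 80% of mitosis genes, 13.6% of replication genes, 14.2% of tested genes and 20.2% of all. TTTNNCGC was present for 45.5% of replication genes, 8% of mitosis genes, 10.4% of tested genes and 5.93% of all. No mitosis promoter had CCAAT and TTTGAA sharing bases, and 17 genes had both. A match describes these letters in this window and is no evidence of binding.

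Genes of the interstitial matrix were split. Of 28 tested, Spp1 was called (0.178% over all genes called higher), and the median difference was 0.26. At an unadjusted p under 0.05 there were 11, all higher (10.4% over all genes). After median-of-ratios scaling 9 had an unadjusted p under 0.05, all higher (4.68% over all genes), and the median was 0.11. Tnc, tenascin C, had 11.7 and 11.7 FPKM in resection libraries, against 5.61 and 5.85 FPKM in sham libraries (log2 difference 0.91 ± 0.25, SE, n = 2 each, adjusted p = 0.183). Postn, periostin, which activated fibroblasts secrete, had 437 and 470 FPKM in resection libraries, against 334 and 267 FPKM in sham libraries (log2 difference 0.60 ± 0.18, SE, n = 2 each, adjusted p = 0.216). Fn1, fibronectin, had 72.1 and 60 FPKM in resection libraries, against 46.1 and 44.0 FPKM in sham libraries (log2 difference 0.54 ± 0.19, SE, n = 2 each, adjusted p = 0.304). All 3 were without overlap, as were 16 of the 28 with resection higher (36.3% over all genes). After median-of-ratios scaling 11 of the 28 were (18.1% over all genes), with 2 in reverse. The resection pair was the closer one for Tnc and Postn, and the sham pair for Fn1.

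Thbs4, thrombospondin 4, Cilp, cartilage intermediate layer protein, and Cthrc1, a secreted protein of activated fibroblasts, differed by 0.84 ± 0.22, 0.85 ± 0.17 and 0.66 ± 0.24 (SE, n = 2 each). Cilp had 1.65 and 2.30 FPKM in resection libraries, against 0.775 and 0.509 FPKM in sham libraries, and its adjusted p of 0.0717 was the smallest after that of Spp1, but it passed the filter through the resection libraries alone, so a difference was built into its selection. Col1a1 and Col3a1, which encode the fibrillar collagens I and III, had differences near 0. Col1a1 had 79.6 and 92.0 FPKM in resection libraries, against 91.2 and 75.7 FPKM in sham libraries, and Col3a1 had 302 and 407 FPKM in resection libraries, against 411 and 331 FPKM in sham libraries. Their differences were 0.04 ± 0.18 and -0.07 ± 0.20 (SE, n = 2 each), the sign of Col1a1 turned under either scaling, and the groups overlapped for both. Col5a2, of the fibrillar collagen V, had 45.7 and 50.5 FPKM in resection libraries, against 41.0 and 35.6 FPKM in sham libraries, without overlap (log2 difference 0.32 ± 0.14, SE, n = 2 each).

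**Figure D3:**
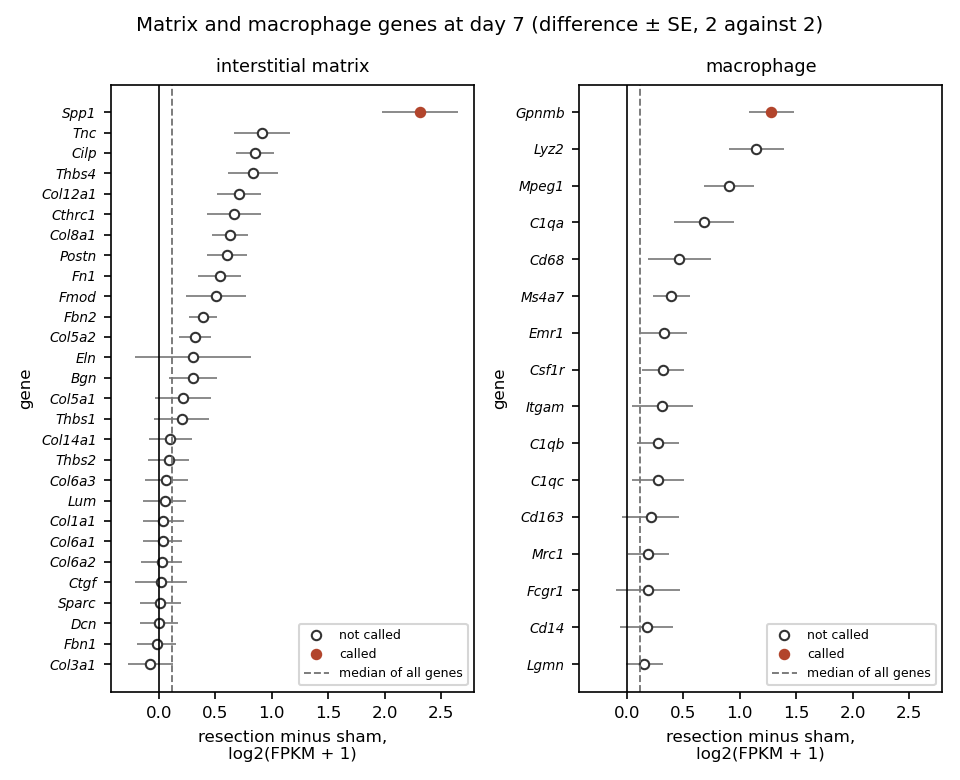
Resection minus sham difference in log2(FPKM + 1) with its SE (n = 2 each) for the tested genes of the interstitial matrix and macrophage lists; filled points were called and the dashed line is the median of all genes, 0.12. Spp1 and Gpnmb stand at the top of their lists, while Col1a1 and Col3a1 lie near 0.

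Enzymes that build and remodel matrix showed 4 of 20 tested genes at an unadjusted p under 0.05, all higher (10.4% over all genes), and a median of 0.16. After median-of-ratios scaling 2 of 20 were left (4.68% over all genes) and the median was 0.01. P4ha3, a collagen prolyl hydroxylase subunit, had 2.21 and 2.32 FPKM in resection libraries, against 0.824 and 1.12 FPKM in sham libraries (log2 difference 0.73 ± 0.15, SE, n = 2 each, adjusted p = 0.0822). Mmp12, macrophage elastase, had 3.29 and 4.25 FPKM in resection libraries, against 1.67 and 0.754 FPKM in sham libraries (log2 difference 1.13 ± 0.29, SE, n = 2 each, adjusted p = 0.158). Among TGF-beta genes 3 of 25 tested (12%) had an unadjusted p under 0.05, all higher, a share near the 10.4% of all genes. Ltbp2, a latent TGF-beta binding protein, had 1.58 and 1.53 FPKM in resection libraries, against 0.448 and 0.507 FPKM in sham libraries (log2 difference 0.79 ± 0.15, SE, n = 2 each, adjusted p = 0.0717), and it too passed the filter through resection alone. Tgfb1 differed by 0.56 ± 0.15 (adjusted p = 0.173) and Tgfb2 by 0.43 ± 0.13 (adjusted p = 0.22).

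Resident fibroblast markers lay below the median of all genes. Their median over 10 tested genes was -0.18 as deposited and -0.32 after median-of-ratios scaling. Scara5, a ferritin receptor of quiescent fibroblasts, had 1.32 and 1.89 FPKM in resection libraries, against 3.69 and 3.87 FPKM in sham libraries (log2 difference -0.88 ± 0.18, SE, n = 2 each, adjusted p = 0.0792). Thy1 had 7.80 and 8.21 FPKM in resection libraries, against 9.61 and 12.4 FPKM in sham libraries. Neither gene was called, and in both the sham libraries were the higher ones. At an unadjusted p under 0.05, 1 of the 10 was lower as deposited (1.17% over all genes) and 4 were lower under each scaling (3.79% by median of ratios, 4.3% by quantiles), and 1 of them was called lower under quantile normalization.

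Epicardial markers lay on the other side, with a median of 0.41, or 0.31 after median-of-ratios scaling. Of 9 tested genes 3 had an unadjusted p under 0.05, all higher (10.4% over all genes). After that scaling 1 of the 9 was left at that p (4.68% over all genes). Wt1, the transcription factor of the activated epicardium, had 12.0 and 10.5 FPKM in resection libraries, against 8.45 and 6.89 FPKM in sham libraries (log2 difference 0.51 ± 0.15, SE, n = 2 each, adjusted p = 0.217). Upk3b, a mesothelial surface protein, had 11.2 and 10.7 FPKM in resection libraries, against 7.36 and 6.66 FPKM in sham libraries (log2 difference 0.58 ± 0.21, SE, n = 2 each, adjusted p = 0.308). The groups were separate for both genes, as they were with resection higher in 36.3% of all genes. Upk3b also marks the mesothelium that covers lung, and the part of that tissue was not tested.

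Macrophage markers were all positive, where 9282 of the 12386 genes tested were. Of 16 tested, Gpnmb was called (0.178% over all genes called higher), though not after quantile normalization. At an unadjusted p under 0.05 there were 5, all higher (10.4% over all genes). The median was 0.32, or 0.20 after median-of-ratios scaling. After that scaling all 16 were still positive (5940 of all 12386 genes), and 5 did not overlap (18.1% over all genes). Their summed level was 215 and 173 FPKM in resection libraries and 121 and 117 FPKM in sham libraries, within the range of 71.3 to 278 FPKM of the 12 other ventricle libraries. Mpeg1, perforin 2 of macrophages, had 5.29 and 4.30 FPKM in resection libraries, against 2.16 and 2.01 FPKM in sham libraries (log2 difference 0.91 ± 0.22, SE, n = 2 each, adjusted p = 0.156). C1qa, a complement subunit made by resident macrophages, had 11.1 and 7.18 FPKM in resection libraries, against 3.90 and 6.83 FPKM in sham libraries, so that sham replicate 2 almost reached resection replicate 2.

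Neutrophil calgranulins were higher after resection without a call. S100a9 had 17.4 and 18.8 FPKM in resection libraries, against 3.95 and 9.45 FPKM in sham libraries (log2 difference 1.41 ± 0.34, SE, n = 2 each, adjusted p = 0.156). S100a8 had 15.1 and 11.7 FPKM in resection libraries, against 2.19 and 7.55 FPKM in sham libraries (log2 difference 1.46 ± 0.40, SE, n = 2 each, adjusted p = 0.183). Sham replicate 2 was well above sham replicate 1 for both, and 4 of the 11 listed neutrophil genes were tested. No gene of the T and NK cell, thymocyte or liver lists reached the FPKM minimum in 2 libraries.

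Contractile and metabolic genes of muscle cells did not pass the test in either direction. Of 22 sarcomere genes tested none was called, 1 had an unadjusted p under 0.05, and the median was -0.03, or -0.18 after median-of-ratios scaling. Myh6, the main adult myosin of mouse heart, had 2218 and 1557 FPKM in resection libraries, against 2127 and 2434 FPKM in sham libraries, with overlapping groups. Myh7, the fetal myosin, had 191 and 128 FPKM in resection libraries, against 98.6 and 119 FPKM in sham libraries (log2 difference 0.53 ± 0.20, SE, n = 2 each, adjusted p = 0.34). Tnni3, adult troponin I, had 1659 and 1164 FPKM in resection libraries, against 1280 and 1581 FPKM in sham libraries, and Tnni1, its fetal form, had 182 and 124 FPKM in resection libraries, against 85.8 and 149 FPKM in sham libraries. Both troponins overlapped between the operations.

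Stretch and fetal genes were mixed, with 3 of 11 tested at an unadjusted p under 0.05, all higher (10.4% over all genes), and a median of 0.22. After either scaling 1 of 11 was left at that p, with a median of 0.08 after median-of-ratios scaling. Uchl1, a deubiquitinase of fetal and stressed muscle and of neurons, had 6.81 and 6.17 FPKM in resection libraries, against 2.42 and 2.48 FPKM in sham libraries (log2 difference 1.12 ± 0.22, SE, n = 2 each, adjusted p = 0.0717). Nppa, atrial natriuretic peptide, had 382 and 470 FPKM in resection libraries, against 212 and 182 FPKM in sham libraries (log2 difference 1.11 ± 0.50, SE, n = 2 each, adjusted p = 0.42). Nppb, its B-type relative, had 473 and 437 FPKM in resection libraries, against 542 and 419 FPKM in sham libraries. Uchl1 and Nppa were separate between the operations, and Nppb overlapped. Ankrd1, a stretch-sensing muscle protein, had 997 and 911 FPKM in resection libraries, against 643 and 792 FPKM in sham libraries, without overlap but with an SE of 0.34 on a difference of 0.42.

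Fatty acid oxidation showed a median of 0.01 over 30 genes and respiration a median of -0.03 over 33, both below that of all genes. Fabp3, the fatty acid carrier of heart muscle, differed by 0.53 ± 0.20 (SE, n = 2 each, adjusted p = 0.331), and Cpt1a, which admits long fatty acids to mitochondria, by 0.36 ± 0.16 (adjusted p = 0.402). Calcium handling genes had a median of -0.11 over 18, with 2 at an unadjusted p under 0.05, both lower (1.17% over all genes). After median-of-ratios scaling 5 of 18 were lower at that p (3.79% over all genes) with a median of -0.26, and 3 after quantile normalization. Respiration genes, none of which had such a p as deposited, had 5 of 33 lower with median-of-ratios scaling and 1 with quantile normalization. Hrc, a calcium-binding protein of the sarcoplasmic reticulum, had 186 and 188 FPKM in resection libraries, against 250 and 260 FPKM in sham libraries (log2 difference -0.45 ± 0.18, SE, n = 2 each, adjusted p = 0.364). Fhl2, a sarcomere-associated LIM protein in no list, had 387 and 366 FPKM in resection libraries, against 588 and 607 FPKM in sham libraries (log2 difference -0.66 ± 0.15, SE, n = 2 each, adjusted p = 0.109). Each pair of libraries was tight for these 2 genes and the sham pair was the higher.

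Other lists of tissue response held no called gene. Interferon response genes had a median of 0.29 over 18 tested, with 4 at an unadjusted p under 0.05, all higher (10.4% over all genes), of which 0 were left with median-of-ratios scaling and 1 with quantile normalization. Their summed level was 136 and 72.9 FPKM in resection libraries and 66.5 and 68.1 FPKM in sham libraries, so it was high in resection replicate 1 alone. Antigen presentation genes had a median of 0.35 over 8, but 2 of the 8 did not overlap (36.3% over all genes), and the summed level of 256 and 162 FPKM in resection libraries overlapped with 119 and 204 FPKM in sham libraries. Cd74, the invariant chain of class II complexes, had 6.47 and 3.53 FPKM in resection libraries, against 1.19 and 2.88 FPKM in sham libraries (log2 difference 1.00 ± 0.42, SE, n = 2 each, adjusted p = 0.395). Fetal growth and imprinted genes had a median of 0.35 over 8, with 3 at an unadjusted p under 0.05, all higher (10.4% over all genes), of which 1 was left after either scaling. Igf2bp3, an RNA-binding protein of fetal tissue, had 4.24 and 4.49 FPKM in resection libraries, against 2.66 and 2.72 FPKM in sham libraries (log2 difference 0.54 ± 0.12, SE, n = 2 each, adjusted p = 0.098). Its groups were tight and separate.

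Vessel genes lay close to the median of all genes. None of 11 endothelial and 11 smooth muscle and pericyte genes had an unadjusted p under 0.05, and the medians were 0.15 and 0.04. Pdgfa, a growth factor for mesenchymal cells, had 17.8 and 19.4 FPKM in resection libraries, against 12.3 and 14.5 FPKM in sham libraries (log2 difference 0.44 ± 0.12, SE, n = 2 each, adjusted p = 0.178). Egln3, a prolyl hydroxylase of the oxygen response, had 38.5 and 33.1 FPKM in resection libraries, against 55.7 and 44.9 FPKM in sham libraries (log2 difference -0.48 ± 0.17, SE, n = 2 each, adjusted p = 0.32). Egr2, an immediate early transcription factor, had 1.45 and 1.59 FPKM in resection libraries, against 0.664 and 0.586 FPKM in sham libraries (log2 difference 0.63 ± 0.17, SE, n = 2 each, adjusted p = 0.184). The groups of all 3 were separate, Egln3 with the sham libraries higher. Of all genes 36.3% were separate with resection higher and 6.52% with sham higher. Egr2 passed the filter through the resection libraries alone.

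Red cell transcripts showed no called gene. Hbb-b2, an adult beta globin, had 1593 and 1585 FPKM in resection libraries, against 1696 and 1213 FPKM in sham libraries, with overlapping groups, and the list's median was 0.00 over 7 genes. Hba-a2 had 1.12 and 6.41 FPKM in resection libraries, against 46.1 and 16.4 FPKM in sham libraries. It is a near-identical copy of Hba-a1, which had 89.5 and 142 FPKM in resection libraries, against 174 and 131 FPKM in sham libraries, so the division of reads between the pair is uncertain.

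**Figure D4:**
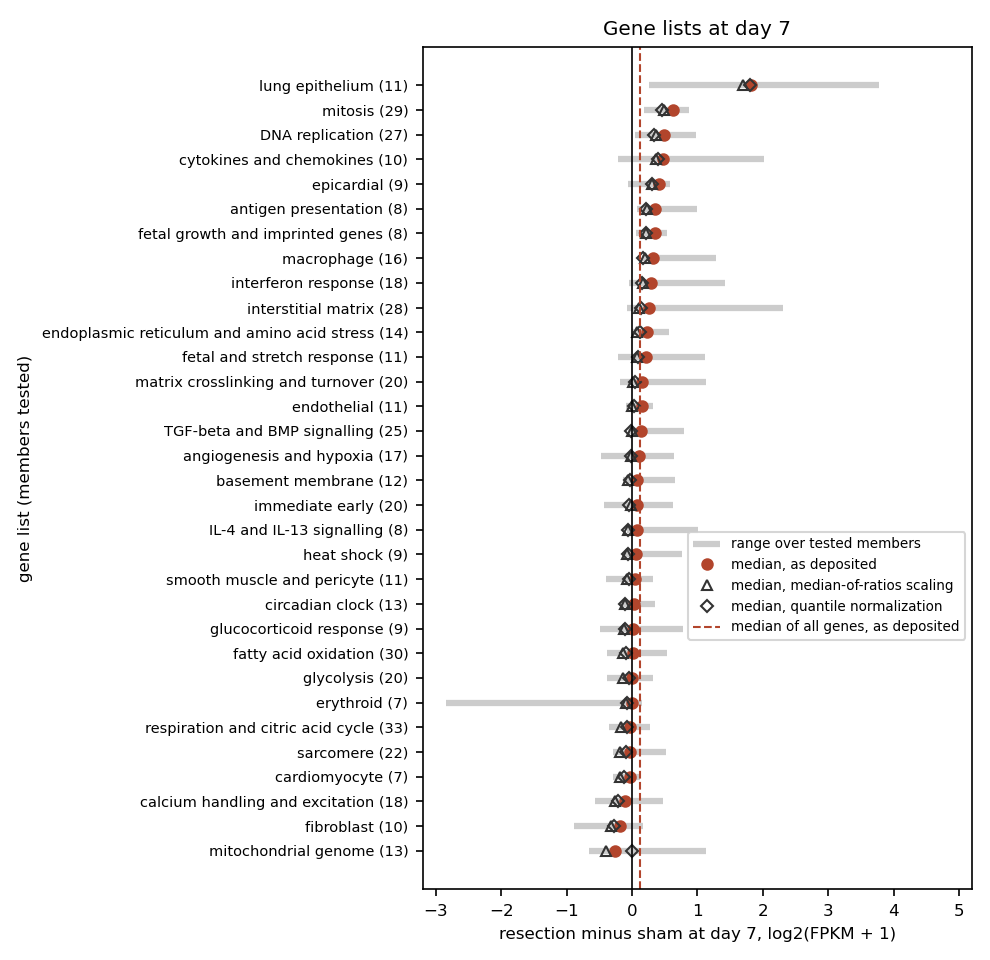
Median resection minus sham difference in log2(FPKM + 1) of each list with at least 5 tested genes other than the sex-linked list, whose median was 1.86 over 5 genes, as deposited (filled), scaled by median of ratios (triangles) and normalized by quantiles (diamonds); bars span the lowest to the highest member. Lung epithelium, mitosis and DNA replication stand highest among the lists drawn, with medians of 1.82, 0.62 and 0.49, and the dashed line is the median of all genes, 0.12.

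Growth after birth changes many of the same programs, so genes that differ between adult and P0 ventricle were looked at in the day 7 comparison. Both sets were formed at an adjusted p under 0.05 and a difference of at least 2-fold in FPKM + 1. Of 2133 genes lower in adult than in P0 ventricle, 1905 were tested at day 7, and 24.3% had an unadjusted p under 0.05 and were higher after resection, where 10.4% of all genes were. Of 781 genes higher in adult than in P0 ventricle, 619 were tested, and at that p 6.62% were lower after resection (1.17% of all genes) and 6.14% were higher (10.4% of all genes). The sets and the day 7 test drew on the same fit of the ventricle libraries and so on the same residual spread. Choosing genes by p there favours small SEs, which can raise these shares by itself, and its part was not tested. The median differences, which use no SE, were 0.24 for the set lower in adult and -0.02 for the set higher in adult, against 0.12 over all genes. Sets formed from P7 against P0 gave medians of 0.32 over 170 genes and -0.09 over 167 genes. The signs relative to all genes were the same after both scalings, and the sets contain the cell cycle genes described above.

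The libraries labelled day 1 need a caution before they are used. Spp1 had 11.9 and 8.27 FPKM in the libraries labelled day 1 resection, against 89.8 and 101 FPKM in those labelled day 1 sham. Saa3 had 3.18 and 2.63 FPKM in the libraries labelled day 1 resection, against 38.7 and 41.4 FPKM in those labelled day 1 sham. Of 14 tested cytokines and chemokines 12 were called lower in the libraries labelled day 1 resection (11.4% of all genes were), as were 11 of 17 macrophage markers. Injury genes thus ran against the day 1 labels, while they ran with the labels at day 7, and labels were kept as given.

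**Figure D5:**
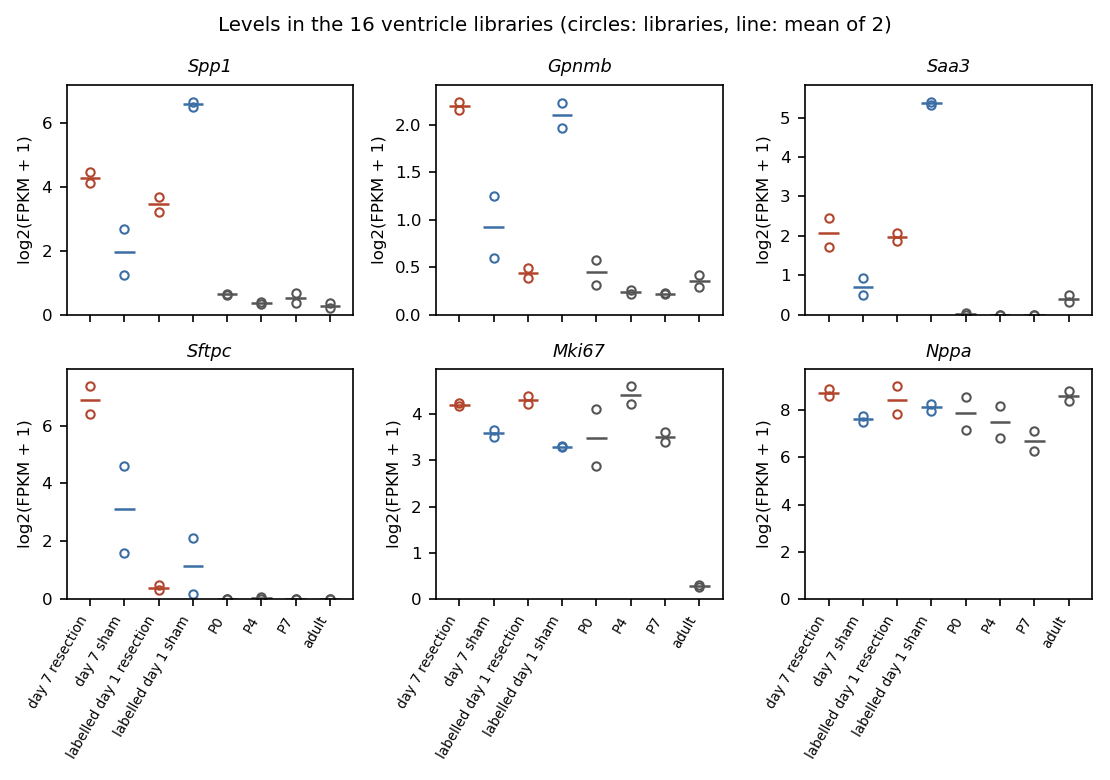
Levels in log2(FPKM + 1) of 6 genes in the 16 ventricle libraries, with circles for libraries and a line at the mean of 2. Spp1, Gpnmb and Saa3 are higher in the libraries labelled day 1 sham than in those labelled day 1 resection, and Sftpc is high in the day 7 resection libraries.

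The resection effect at day 7 minus that between the libraries labelled day 1 was tested directly. It differed for 949 of 13003 genes (7.3%), with 910 higher at day 7 (7%) and 39 lower (0.3%). These counts and directions rest on the day 1 labels as given. For Spp1 the effect was 2.31 ± 0.33 at day 7 and -3.13 ± 0.33 between the libraries labelled day 1, a difference of 5.44 ± 0.47 (SE, adjusted p = 0.000183). For Gpnmb the effects were 1.28 ± 0.20 and -1.66 ± 0.20, a difference of 2.94 ± 0.28 (SE, adjusted p = 0.000338). In size without sign, the labelled day 1 effect was the larger for both. For C1qtnf3 the difference of effects was 1.42 ± 0.23 (adjusted p = 0.00563), and this gene was at or below 0.124 FPKM in all 4 libraries labelled day 1. At such levels the day 1 effect can only be small, so this value mostly repeats the day 7 effect of 1.47. Mki67 was not called in this test. It had 17.7 and 20.1 FPKM in the libraries labelled day 1 resection, against 8.89 and 8.76 FPKM in those labelled day 1 sham, and its difference of effects was -0.40 ± 0.39 (adjusted p = 0.534). Of the cell cycle lists 9 of 29 mitosis genes and 8 of 28 replication genes were called higher in the libraries labelled day 1 resection (1.81% of all genes were), and none lower. With median-of-ratios scaling 352 genes differed in place of 949, and 51 did in a fit of the 8 libraries compared.

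Isolated cardiomyocytes came from other libraries and share no control with ventricle. Of the 22 genes higher in resected ventricle, 15 were tested there and 12 were also called higher after resection. Of all genes 1.09% were called higher there and 0.0158% lower. The 12 were the 6 called genes of the lung list and Lyz1, Wfdc2, Il33, Slc27a6, Enpp2 and Cxcl13. C1qtnf3, Saa3 and S100g were tested there and not called (limma adjusted p = 0.331, 0.498 and 0.118). Sftpc had 396, 142 and 947 FPKM in isolated cells after resection, against 0.308, 0.394 and 1.88 FPKM after sham surgery. Cxcl13 had 2.01, 13.2 and 75.1 FPKM after resection, against 0.0671, 0 and 0.111 FPKM after sham surgery. Enpp2 had 4.2, 18.1 and 37.8 FPKM after resection, against 1.44, 1.39 and 1.28 FPKM after sham surgery. All resection libraries exceeded all sham libraries for the 3 genes, and the lung list was called higher in 12 of 13 genes.

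Spp1 and Gpnmb were low in isolated cells, at or below 0.281 and 0.204 FPKM in each of the 6 libraries. The ventricle effect exceeded the isolated effect for Gpnmb by 1.16 ± 0.22 (SE, adjusted p = 0.026), and for Spp1 by 2.13 ± 0.56 (adjusted p = 0.15), which was not called. At such low levels the isolated effect can only be small on this scale, so these values mostly repeat the ventricle effects. Of 13493 genes tested for that difference 12 were called, 6 higher in ventricle and 6 lower (0.0445% each). The cell cycle lists had medians of 0.12 for mitosis and -0.11 for replication in isolated cells with no gene called, against 0.14 over all genes. The differences between ventricle and isolated lists were not tested. Interstitial matrix genes had a median of 1.55 over 26 there, but Col1a1 illustrates the spread, with 188, 417 and 163 FPKM after resection and 34.5, 49.9 and 190 FPKM after sham surgery. Nppa had 408, 602 and 473 FPKM in isolated cells after resection, against 35.9, 42.2 and 82.6 FPKM after sham surgery, and was called there (log2 difference 3.26 ± 0.58, SE, n = 3 each, adjusted p = 0.0194). Atrial markers moved with it there, with 6 of 7 called higher (1.09% over all genes) and a median of 3.26. Myl4, the atrial myosin light chain, had 103, 215 and 78.1 FPKM in isolated cells after resection, against 3.71, 6.0 and 4.69 FPKM after sham surgery (log2 difference 4.40 ± 0.77, SE, n = 3 each, adjusted p = 0.0176). In ventricle Myl4 had 9.33 and 7.33 FPKM in resection libraries, against 4.83 and 4.96 FPKM in sham libraries, and none of the 4 atrial markers tested was called. The part of atrial tissue in the level of Nppa was not tested. The effect on Nppa in ventricle was smaller by 2.15 ± 0.86 (SE, adjusted p = 0.51), which was not called.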

How the data were processed

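The authors deposited 1 table of FPKM values per gene model for 36 libraries, for build mm9. The submitters' processing notes name TopHat 1.3.2 and Bowtie 0.12.7, and also Cuffdiff and Cufflinks 1.2.1, without their roles. The annotation and the Cuffdiff version are not given in the sources used here. Libraries were prepared by an earlier method or with a TruSeq kit and sequenced on a GA-2 or a Hi-Seq, per the labels' protocols, and which library had which is not given, so it cannot be told apart from the groups. FPKM values carry no read counts, so depth is unknown.

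Values were tested as log2(FPKM + 1) with limma 3.58.1 in R 4.3.3 (moderated test, variance trend), with 16 ventricle libraries fitted as 8 group means and 8 residual degrees of freedom. All 36 libraries entered the test of ventricle against isolated effects, and the isolated comparison was fitted on isolated libraries only. Benjamini-Hochberg adjustment ran over all genes tested, and genes under an adjusted p of 0.05 were called. The scripts were tested on simulated data. An exact permutation test of 2 against 2 libraries cannot go below p = 0.333.

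Named genes were the called genes with a group mean of at least 5 FPKM (up to 14 in each direction), up to 4 called members of each list or otherwise the 2 with the smallest p, up to 6 in each direction of each difference test, and a fixed set of muscle, matrix and cell cycle genes. Other genes were named after their values were seen. Acta1 is not analysed here. The members and lists were chosen with earlier results of these data known. Same-numbered day 7 libraries deviated in opposite directions (r = -0.151 over 12386 genes), which does not pair them, and the fit reported has no replicate block. Alternatives were other pseudocounts, filters, scalings, blocks and sample sets, and leaving out each library. No pair of libraries held identical values. Promoters came from RefSeq on GRCm38.p6.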

Additional observations from a re-analysis of the deposited data

Results flagged for a closer look

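The resection effect differed between day 7 and the libraries labelled day 1, by limma's test of the difference itself, for the following genes. Spp1 differed by 5.44 ± 0.474 (SE, adjusted p = 0.000183), Saa3 by 4.77 ± 0.305 (adjusted p = 6.69e-06) and Lgals3, galectin 3 of activated macrophages, by 4.32 ± 0.43 (adjusted p = 0.000366). The chemokine genes Ccl6 and Ccl9 differed by 4.57 ± 0.497 (adjusted p = 0.00069) and 4.09 ± 0.526 (adjusted p = 0.0019). For example, Lgals3 had 5.95 and 6.02 FPKM in day 7 resection libraries, against 2.5 and 1.59 FPKM in day 7 sham libraries. It had 4.18 and 1.86 FPKM in the libraries labelled day 1 resection, against 24.2 and 42.5 FPKM in those labelled day 1 sham. These differences rest on the day 1 labels as given. At day 7 the effects were 2.31 for Spp1, 1.37 for Saa3, 1.21 for Lgals3, 1.26 for Ccl6 and 0.95 for Ccl9. Between the libraries labelled day 1 they were -3.13 for Spp1, -3.40 for Saa3, -3.10 for Lgals3, -3.31 for Ccl6 and -3.14 for Ccl9, larger in size than at day 7 for all 5. Sftpc differed by 4.51 ± 1.06 (adjusted p = 0.0273).

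In the other direction, Ssh2 differed by -3.13 ± 0.504 (adjusted p = 0.00523), a value of 1 of its 2 gene models. Kcnip2, a potassium channel subunit, differed by -1.48 ± 0.342 (adjusted p = 0.0264). Kcnip2 had 47.7 and 49.4 FPKM in day 7 resection libraries, against 54.5 and 51.3 FPKM in day 7 sham libraries. It had 42.9 and 43.9 FPKM in the libraries labelled day 1 resection, against 22.0 and 12.1 FPKM in those labelled day 1 sham, so most of its difference lay between the libraries labelled day 1. Art1, a muscle ADP-ribosyltransferase, differed by -1.40 ± 0.346 (adjusted p = 0.0319), Rnaset2b by -1.35 ± 0.223 (adjusted p = 0.00565), Pdzd9 by -1.28 ± 0.348 (adjusted p = 0.0449) and Apln, the peptide apelin, by -1.15 ± 0.251 (adjusted p = 0.02).

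The effect in ventricle differed from that in isolated cardiomyocytes for 2 lung genes of the list. Sftpb differed by -3.87 ± 0.516 (SE, adjusted p = 0.000398). It had 35.9, 14.5 and 97.1 FPKM in isolated cells after resection, against 0, 0.0566 and 0.159 FPKM after sham surgery. Napsa, an aspartic protease of alveolar cells, differed by -1.92 ± 0.357 (adjusted p = 0.026). The part of the day 1 labels and of lung transcripts in these values was not tested.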

How the results depend on the processing

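All 23 genes called at day 7 kept their direction under every alternative in which they were tested. The count of 23 became 79 without a filter on low values, 14 with a filter on the mean, 3 in a fit of the 4 libraries alone, and 0 with a pseudocount of 0.1 (1213 higher and 127 lower at an unadjusted p under 0.05 in limma). Among alternatives chosen after seeing the data, it was 63 without the libraries labelled day 1, 14 with the lung list left out before adjustment, and 0 in the 8 surgery libraries (844 higher and 106 lower at that p). Leaving out each library gave 2 to 43, where the lone sample is assumed to vary like the other groups, and only 8 of the 23 were still tested without either resection library. The replicate block gave 21 calls with 20 of the 23 kept, and the crossed block, chosen after seeing the data, gave 25. The cause of these shifts was not tested.

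The difference between day 7 and labelled day 1 effects, 949 genes, became 352 with median-of-ratios scaling (244 higher, 108 lower), 273 with quantile normalization (185 higher, 88 lower), 51 in the 8 compared libraries, 573 at a minimum fold of 2, 848 with the replicate block, and 233 to 2778 on leaving out each library (233 without day 1 sham replicate 2, 2778 without day 1 resection replicate 2). The difference between ventricle and isolated effects, 12 genes, became 120 without a filter, 2 with a filter on the mean, 52 with median-of-ratios scaling (7 higher, 45 lower), 54 with quantile normalization (9 higher, 45 lower), 14 with the replicate block, and 5 to 218 on leaving out each library (218 without isolated sham replicate 3).

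Uncalled genes whose sign turned were Col1a1 (-0.105 with median-of-ratios scaling, -0.060 with quantile normalization, and -0.090 to 0.175 on leaving out each library), Col3a1 (-0.289 to 0.141 on leaving out each library), Nppb (-0.255 to 0.116) and Tnni3 (-0.289 to 0.221). Among the values of single genes and lists, 1883 counted as the same. For a gene this means that it kept its side of the threshold, called or not. For a list it means that the median moved by no more than the spread of its members. Of the others 174 lost a call, 22 gained one, 18 moved by more than the spread and 9 turned sign. Genes never called are among the 1883, so the tally does not measure how stable the calls were. Without counts, no depth limit can be given for low genes.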
